A study of Caenorhabditis elegans with 6 samples.

Results

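Expression of the whole genome was compared between *C. elegans* carrying extra copies of *hlh-30* and control worms, both in a background that expresses amyloid-beta (Aβ). All 22588 genes listed in the deposited table of this comparison were considered. Of these, 15918 genes had at least 10 normalized reads in at least 2 of the 4 libraries and were tested, whatever their direction of change. At the edge of this filter, C27F2.6 was kept with 3.84 and 2.88 normalized reads in the overexpression libraries and 13.8 and 10.1 in the control libraries. The first locus below it, which carries no gene annotation, was left out with 9.60 and 18.2 normalized reads in the overexpression libraries and 1.06 and 0 in the control libraries.

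The control group consisted of 2 libraries of whole worms labelled as wt, on the first day of adulthood. The table names these worms GMC101, a strain whose listed transgene expresses human Aβ in body wall muscle from the *unc-54* promoter and carries a green fluorescent protein gene under the intestinal *mtl-2* promoter. The *hlh-30* overexpression group consisted of 2 libraries of the same stage, named in the table after GMC101 as well. Of the listed strains with this background, HBW002 carries the same transgene plus *hlh-30* fused to green fluorescent protein under the promoter of *hlh-30* itself. Extra copies thus act where that promoter is active. HBW003 carries both of these and also an array with the plasmid pRF4, which carries *rol-6*. All worms were raised to young adults and then kept at a higher temperature for a day to induce Aβ, so by these names both groups share the Aβ transgene and the heat. The description of the whole series instead names CL4176, an Aβ strain driven by the *myo-3* promoter, as the parent. CL4176 and the *hlh-30* strain made from it (HBW001) are also listed with pRF4, whereas GMC101 and HBW002 are not. Normalized reads of *rol-6* were 1029.8 and 1012 with overexpression and 31.7 and 14.2 in the controls. Overexpression strains of either parent are listed with *rol-6*, so these reads do not tell the parents apart. The parent of the overexpression worms rests on the names of the columns alone. If the parents differ, extra *hlh-30* and the parent strain cannot be told apart in these 4 libraries. The labels do not say whether replicates were separate cultures, so the p-values measure the spread between these libraries, which may be technical.

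HLH-30 is the *C. elegans* counterpart of mammalian TFEB, a helix-loop-helix transcription factor that binds E-box sequences and moves to the nucleus when TOR signalling is low. It is best known for activating lysosome and autophagy genes in fasting, and in *C. elegans* it also acts in fat breakdown, in longevity and in the response to bacterial infection. Most of these roles have been described in the intestine, the organ in which worms digest food, make yolk, store fat and meet ingested microbes.

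Between 18097960 and 18980224 reads fell on genes in each library, and the 10 highest genes took from 6.68% to 7.01% of them. Throughout, pairs of values are normalized reads per gene, first for overexpression replicates 1 and 2 and then for control replicates 1 and 2. *hlh-30* itself had 6022 and 5693 normalized reads versus 3102 and 3315. The overexpression libraries were both above the control libraries, as in 27.9% of all genes tested, while in 29.4% both were below. For *hlh-30* the log2 fold change, computed on log2(value + 1) throughout, was 0.87 (standard error 0.058, limma adjusted p = 3.97e-06). Because RNA came from whole worms, fewer cells of a type and less RNA per cell cannot be told apart. Markers of intestine, body wall muscle, hypodermis, neurons, pharynx, germline and oocytes were all present, whereas the summed level of 4 male markers was between 5.29 and 13.2 normalized reads per library.

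At an adjusted p under 0.05 from limma and a change of at least 2-fold, the threshold of the study, 274 genes rose and 22 fell. These were 1.72% and 0.138% of the genes tested. With no minimum fold, 1068 genes rose (6.71%) and 1283 fell (8.06%). Thus the large changes were nearly all increases, while small changes went both ways. The median fold among genes that rose at least 2-fold was 2.69, and their mean level in the control libraries had a median of 43.3 normalized reads. The genes that fell at any fold had a median control level of 2393 normalized reads and a median fold of 0.812. In 38 of the genes that rose at least 2-fold, both control libraries were under 10 normalized reads, so these passed the filter only through the overexpression libraries.

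**Figure D1:**
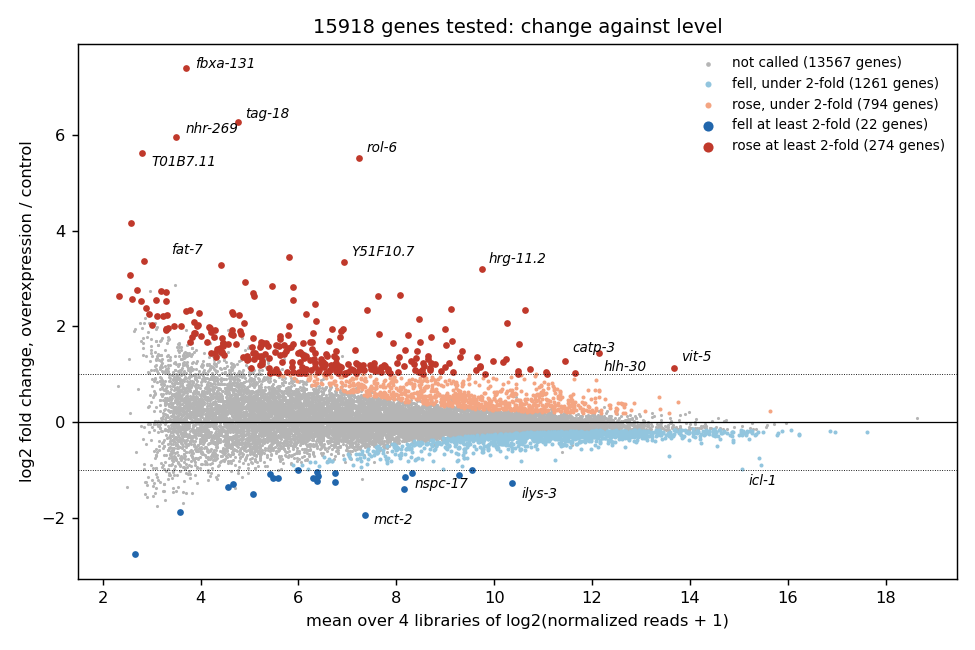
Log2 fold change of each gene tested (overexpression over control, vertical axis) against its mean log2 level over the 4 libraries (horizontal axis). The 274 genes that rose at least 2-fold (dark red) lie mostly at low and middle levels, and the small decreases (light blue) lie mostly at high levels. Dotted lines mark a 2-fold change.

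The balance of rising and falling genes differed with level. When the genes tested were divided into deciles by their mean level over all libraries, 2.58% of the lowest decile rose at least 2-fold and 0.251% of the highest decile did so. By contrast, 34.9% of the highest decile fell at some fold, against 0.126% of the lowest decile. The direction of the small changes also rested on the scaling of the libraries. After division by the deposited size factors, the summed normalized reads were 18153700 and 17971700 in the overexpression libraries and 19142500 and 19236400 in the control libraries. Scaling to equal total reads instead moved the median log2 fold change of all genes from -0.0016 to 0.09, and 1592 genes then rose and 530 fell. The share of increases among called genes went from 45.4% to 75%.

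**Figure D2:**
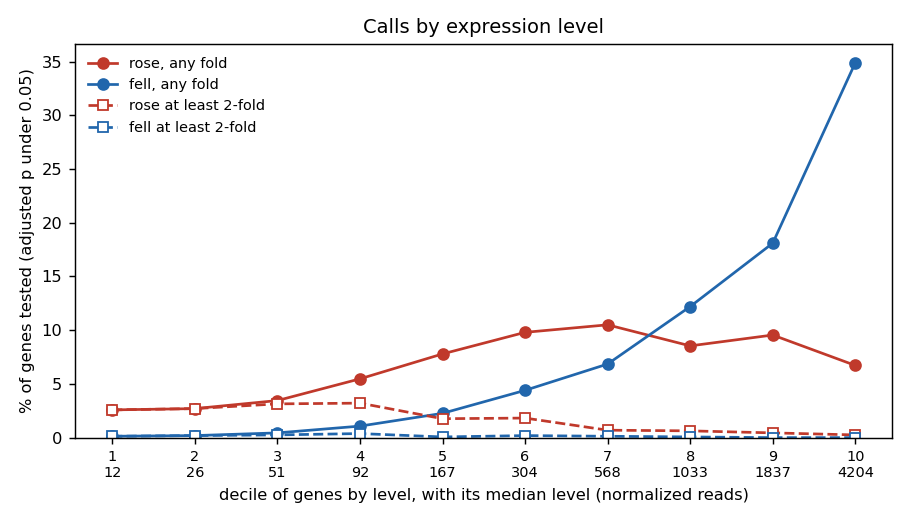
Share of genes called in each decile of the genes tested, ordered by mean level (horizontal axis, with the median level of the decile in normalized reads). Decreases at any fold (blue circles) climb to 34.9% in the highest decile, while increases of at least 2-fold (red squares) are most frequent in the lowest 4 deciles.

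The counts of calls depended on the control libraries. Without control replicate 1 or without control replicate 2, limma called 0 genes at an adjusted p under 0.05, with 2540 and 3074 genes at an unadjusted p under 0.05. Without overexpression replicate 1, 380 genes rose and 49 fell at least 2-fold, and without replicate 2 the numbers were 163 and 35. In each of these fits the lone library is assumed to vary like the other group. On the reads recovered from the table, edgeR called 298 rising and 21 falling genes at this threshold, of which 272 and 20 were shared with limma. DESeq2 called 167 and 13, sharing 159 and 13, and gave no adjusted p for 105 of the increases and 8 of the decreases. Among the genes that rose at least 2-fold, overexpression replicate 2 was above replicate 1 in 215 (78.5%), so the sizes of many increases differ between the replicates.

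The largest increases were in genes close to silent in the control worms. *rol-6*, a cuticle collagen gene whose dominant *su1006* allele makes worms roll and is widely used to mark transgenic animals, was the clearest of these. Its change was 5.52 on the log2 scale (standard error 0.28, limma adjusted p = 6.59e-07). T01B7.11, on the opposite strand of chromosome II at 206 bp from *rol-6*, had 48.9 and 47 normalized reads versus 0 and 0, and was at least 30.9-fold higher when the controls are set to 3 reads over the group. Which listed strain gave the overexpression libraries, and whether it carries a *rol-6* plasmid, was not tested.

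*tag-18*, on the X chromosome (3731919 to 3733457), had 214 and 263 normalized reads versus 2.12 and 2.03, a ratio of 115 with a 95% counting interval of 44.7 to 424. Its end overlaps that of the neighbouring *aex-4* on the other strand, and *aex-4* had 104 and 96.9 against 70.9 and 62.8. *fbxa-131*, an F-box gene on chromosome V (19738417 to 19739393), had 160.3 and 174 normalized reads versus 0 and 0 and was at least 108-fold higher by the same floor. *nhr-269*, a nuclear hormone receptor gene also on chromosome V (15368470 to 15370215), had 84.5 and 92.1 against 1.06 and 0, a ratio of 171 (95% counting interval 30.2 to 6774). These intervals cover counting error only. In all these genes the groups were separated by more than the whole spread within either group.

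**Figure D3:**
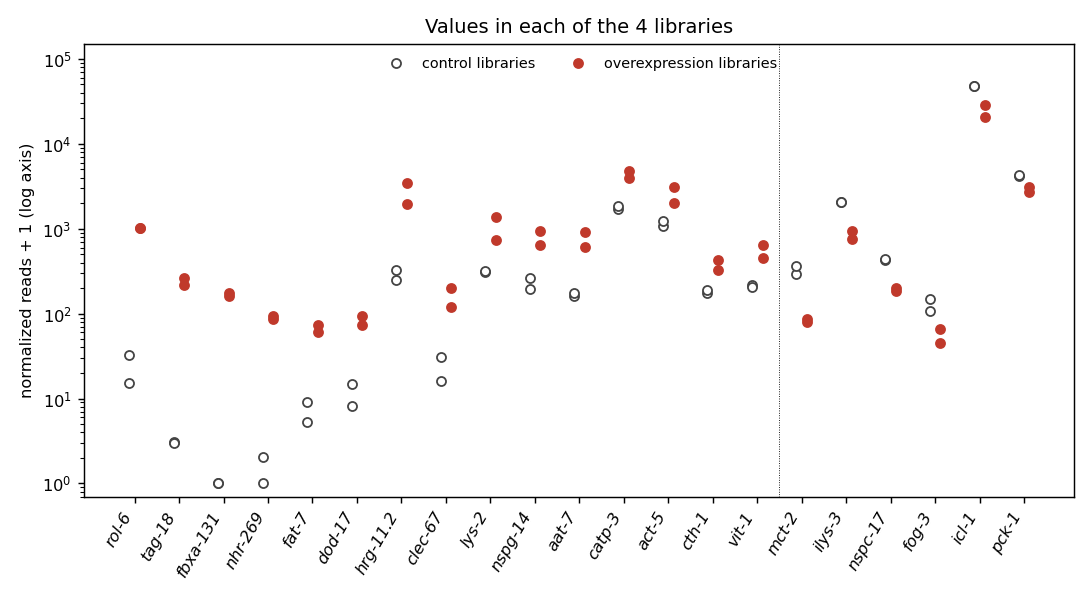
Normalized reads plus 1 (log axis) of chosen genes in each control library (open circles) and each overexpression library (red circles). Genes left of the dotted line rose and genes right of it fell, and in none of them do the groups overlap.

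Genes of innate defence were frequent among the increases. Of 227 C-type lectin genes (*clec*) listed, 132 were tested, 29 rose (22%, against 6.71% of all genes) and 3 fell at any fold. Increases of at least 2-fold numbered 20 (15.2%, against 1.72%), with a median log2 fold change of 0.28 against -0.0016. C-type lectins are secreted or membrane proteins with a carbohydrate-binding fold, many of which are induced by pathogens in worms. *clec-67* had 120.0 and 202 normalized reads versus 29.6 and 15.2 (log2 fold change 2.81, limma adjusted p = 0.00045). *clec-71* had 113 and 294 against 5.29 and 44.6, with a wide spread in both groups and a DESeq2 adjusted p of 0.126, and *clec-265* had 112 and 255 against 36 and 41.6. *clec-58* was low, with 18.2 and 32.6 normalized reads versus 0 and 1.01, a ratio of 49.1 with a 95% counting interval of 8.45 to 1977. The only member that fell at least 2-fold, *clec-145*, went from 119.5 and 115 to 60.5 and 43.2.

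Lysozymes, which cut bacterial cell walls, moved in both directions. Among the 11 lysozyme genes tested, 6 rose (54.5%, against 6.71% of all genes) and 2 fell (18.2%, against 8.06%). *lys-2* had 745 and 1356 normalized reads versus 306 and 315, *lys-1* had 3858 and 5514 against 2115 and 2445, and the invertebrate-type *ilys-5* had 303 and 464 against 95.2 and 116. In contrast, *ilys-3* fell to 946 and 757 from 2068 and 2038 (log2 fold change -1.28, limma adjusted p = 1.08e-05). The groups were separate for each of these genes.

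The *dod* genes were first grouped as acting downstream of the longevity factor DAF-16. In part they encode CUB-like secreted proteins of the pathogen response. They gave 4 increases (50%, against 6.71% of all genes) and 0 decreases among 8 tested. *dod-17* had 72 and 94 normalized reads versus 13.8 and 7.09 (log2 fold change 2.93, limma adjusted p = 0.000718). *dod-24* and *dod-22* also rose at least 2-fold, but from under 20 normalized reads in each control library. Of 24 *pals* genes tested, a class tied in worms to the response to intracellular pathogens, 7 rose (29.2%) and 0 fell. *pals-6* had 95 and 129 against 29.6 and 24.3. *cnc-2*, an antimicrobial caenacin, had 44.1 and 51.8 against 11.6 and 12.2. *irg-7*, an infection response gene, rose by less than 2-fold at a high level, with 3923 and 4767 against 2301 and 2341 (log2 fold change 0.90, limma adjusted p = 4.14e-05). The list of fungus-induced and other small defence proteins, to which *irg-7* belongs, had 22 genes tested. Of these, 3 rose (13.6%) and 2 fell (9.09%, against 8.06% of all genes), and 0 rose at least 2-fold. No saposin-like *spp* gene passed the test among 19 tested.

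Protein domains annotated in the table gave a further grouping. Of 30 genes with a von Willebrand factor type A domain (VWA), 12 rose and 1 fell, and 8 rose at least 2-fold, or 26.7% against 1.72% of all genes. Among them were *hrg-11.2*, of the heme-responsive gene class, with 1977 and 3418 normalized reads versus 245 and 321, and *hrg-11.3* with 1956 and 3264 against 563 and 646. The log2 fold changes were 3.21 and 2.07 (limma adjusted p = 1.74e-06 and 1.83e-05). *irg-7* and *clec-58*, *clec-60*, *clec-61*, *clec-66* and *clec-143* carry the same domain. Of 11 genes with a serine carboxypeptidase S28 domain, 7 rose and 0 fell, *pcp-2* from 6.35 and 17.2 to 47 and 63.3. All domains and gene classes with at least 10 genes tested were examined, and those described here, with the genes named for them, were picked for their values.

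Small secreted peptides split by family. The *nspg* genes (nematode-specific peptide family, group G) gave 7 increases (63.6%, against 6.71% of all genes) and 0 decreases among 11 tested. Their median log2 fold change was 0.91. *nspg-14* had 644 and 927 normalized reads versus 194 and 260.5 (log2 fold change 1.78, limma adjusted p = 7.62e-05). The *nspc* genes (group C) went the other way and are described with the decreases. The galectins (*lec*), sugar-binding proteins, also split. Of 12 tested, 5 rose (41.7%) and 2 fell (16.7%, against 8.06% of all genes). Among those that rose were *lec-6* with 660.3 and 1033 against 315 and 385 and *lec-10* with 993 and 1345 against 459 and 644. The abundant *lec-2* fell from 51884 and 61229 to 34650.3 and 32696 (log2 fold change -0.74, limma adjusted p = 4.22e-05).

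Some genes of the intestinal brush border and some transporters rose, and those named here were picked for their values. *act-5*, the actin of intestinal microvilli, had 2016 and 3088 normalized reads versus 1086 and 1225 (log2 fold change 1.11, limma adjusted p = 0.0005). The intermediate filament genes gave 6 increases and 0 decreases among 11 tested, and the members that rose, *ifb-2*, *ifc-1*, *ifc-2*, *ifd-1*, *ifd-2* and *ifp-1*, are those that build the terminal web below the microvilli. *ifb-2* had 1877 and 2365 against 987 and 1144, and *ifd-1* had 201 and 248 against 44.4 and 79.1. *pept-1*, the intestinal peptide transporter, had 1118 and 1389 against 738 and 737, a log2 fold change of 0.76 (limma adjusted p = 0.000575). In the list of solute carriers and aquaporins as a whole, 8 genes rose and 4 fell among 97 tested, near the background, with a median log2 fold change of 0.01. The amino acid transporter genes *aat-7* and *aat-1* rose with 609 and 912 against 161 and 175 and 561 and 568 against 289.8 and 325. *catp-3*, a cation pump of the P-type ATPase family, had 3996 and 4730.1 against 1721 and 1869, among the highest levels of any gene that rose at least 2-fold.

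Of 6 intestinal markers, 4 rose and 0 fell, and their median log2 fold change was 0.70. Of those that rose, *act-5* and *ifb-2* have been described above, and the others were *elt-2* and *mtl-2*. The intestinal GATA factor *elt-2* had 552 and 649.7 normalized reads versus 373 and 459 (log2 fold change 0.53, limma adjusted p = 0.0132). *ges-1*, the gut esterase, had 727 and 603 against 704 and 719.6, and its groups overlapped. The summed level of the markers, dominated by *asp-1*, was 40066 and 51963 against 41273 and 45874, which overlapped. The part of intestinal tissue in the increases was not tested.

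Yolk proteins and enzymes of fat metabolism added to this. Of the 6 vitellogenin genes, which encode the yolk proteins made in the intestine, 4 rose. *vit-3* had 85.4 and 159 normalized reads versus 25.4 and 9.12, and *vit-1* had 446 and 641 against 216 and 205 (log2 fold changes 2.85 and 1.34, limma adjusted p = 0.00147 and 0.000302). *vit-5* had 19834 and 18839.6 against 9175 and 8484, and *vit-6* rose by a log2 fold change of 0.23. The most abundant member, *vit-2*, had 424856 and 425444 against 373864 and 424660.0 and did not pass the test, nor did *vit-4*. *vit-3*, *vit-4* and *vit-5* are close copies, so their reads are uncertain.

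Among fatty acid desaturases, *fat-7*, a stearoyl-CoA desaturase that makes oleic acid, had 59.5 and 72.9 normalized reads versus 4.23 and 8.11, and so passed the filter only through the overexpression libraries. Its paralog *fat-6* was far higher in level and rose less, with 16799 and 15532 against 10866 and 13300.1. Among 19 desaturase and elongase genes tested, 5 rose and 1 fell, including the elongase *elo-9* with 304 and 275 against 126 and 148. Lipase genes outside and inside the lysosome gave 5 increases and 0 decreases among 17, with *lips-5* at 64.3 and 89.2 against 29.6 and 24.3. The *oac* genes, a family of membrane acyltransferases, gave 5 increases, 4 of them at least 2-fold, and 0 decreases among 29. Fatty acid activation and beta-oxidation genes leaned the other way, with 7 increases and 15 decreases among 64. *acs-2*, an acyl-CoA synthetase known for its induction by fasting, fell from 15921 and 15124 to 10767 and 8301 (log2 fold change -0.71, limma adjusted p = 0.000417).

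Detoxification genes also appeared among the increases. Of 67 cytochrome P450 genes (*cyp*), which oxidize foreign compounds, 10 rose (14.9%, against 6.71% of all genes) and 0 fell. *cyp-33A1* had 463 and 515 normalized reads versus 195 and 209.8. Of 60 UDP-glycosyltransferase genes (*ugt*), which attach sugars to such compounds, 12 rose (20%) and 2 fell. *ugt-8* had 597 and 608 against 261 and 306, and *ugt-16* had 548 and 680.4 against 291 and 266. The P-glycoproteins (*pgp*), pumps that export drugs and toxins, gave 8 increases and 0 decreases among 15 tested, or 53.3%, with a median log2 fold change of 0.60. *pgp-5* had 1346 and 1194 against 723 and 682 (log2 fold change 0.85, limma adjusted p = 0.000113). The wider list of ABC transporters, which includes the *pgp* genes, gave 15 increases and 6 decreases among 55. Carboxylesterase genes (*cest*) gave 7 increases (21.9%) and 0 decreases among 32. Glutathione transferases were nearer the background, with 4 increases and 1 decrease among 44. Short-chain dehydrogenases (*dhs*) leaned the other way, with 2 increases and 4 decreases among 30.

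**Figure D4:**
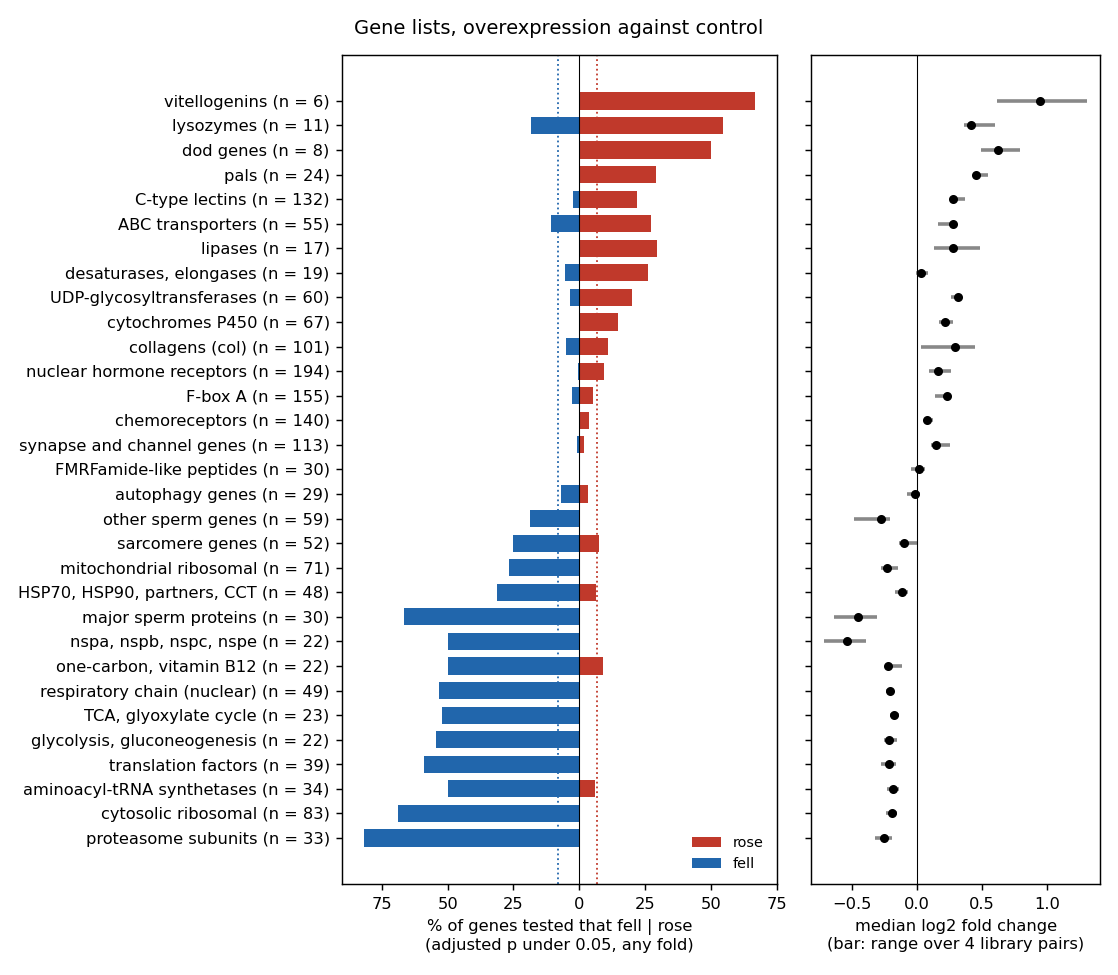
Left, share of tested members of each gene list that rose (red) or fell (blue) at an adjusted p under 0.05 at any fold, with dotted lines at the shares over all genes tested (6.71% and 8.06%). Right, median log2 fold change of the list (point) and its range over the 4 pairs of an overexpression with a control library (bar). The defence and detoxification lists drawn here extend mainly to the right, and lists of translation, proteasome and energy metabolism to the left.

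Sulfur amino acid metabolism showed opposite changes on either side of homocysteine. *cth-1* and *cth-2*, which encode cystathionine gamma-lyase, the enzyme that makes cysteine, had 430.0 and 328 against 176 and 189 and 2429 and 2815 against 1314 and 1308 normalized reads. The log2 fold changes were 1.04 and 1.00 (limma adjusted p = 0.00107 and 1.19e-05). On the side of methionine synthesis, *metr-1*, the methionine synthase, fell from 8807 and 8422 to 7531 and 6734, and *mthf-1*, which supplies its methyl groups, fell from 6457 and 6097 to 4881 and 4464 (log2 fold changes -0.27 and -0.43, limma adjusted p = 0.00877 and 0.000776). In the whole list of one-carbon and vitamin B12 genes, 2 rose, these being both *cth* genes, and 11 fell among 22 tested. With scaling to equal totals, 4 rose and 3 fell.

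Cuticle collagen genes rose in part and varied widely between replicates. Of 151 *col* collagen genes listed, 101 were tested, 11 rose (10.9%, against 6.71% of all genes) and 5 fell (4.95%, against 8.06%). *col-129* had 744 and 911 normalized reads versus 374 and 419 (log2 fold change 1.05, limma adjusted p = 0.000185), with separate groups. *dpy-13*, a body-shape collagen, had 106 and 224 against 96.3 and 33.4, so that replicate 2 was far above replicate 1 with overexpression and far below it in the controls, and its call was lost in DESeq2 (adjusted p = 0.325). The median of the 22 body-shape collagens ranged from 0.05 to 1.48 over the 4 pairs of libraries. Without overexpression replicate 1, 11 of them rose, and without replicate 2 only 1 did. Hypodermal markers, of which *rol-6* and *dpy-13* are members, summed to 6886 and 7197 against 5956 and 5411, with 2 of 6 rising, and their part in the cuticle result was not tested. *lpr-4*, a lipocalin-related gene of the apical matrix, and *grl-21*, of the hedgehog-related families, rose from under 10 normalized reads in both controls.

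Among regulators, few transcription factor genes changed by 2-fold. Of 260 nuclear hormone receptor genes listed, 194 were tested, 18 rose (9.28%, against 6.71% of all genes) and 1 fell. Only *nhr-269* and *nhr-162* rose past 2-fold (1.03%, against 1.72% of all genes). *nhr-49*, a regulator of fat metabolism that acts on *fat-7*, had 4524 and 4429.7 against 3633 and 3921 (log2 fold change 0.25, limma adjusted p = 0.0134). *mxl-3*, encoding a helix-loop-helix factor that opposes HLH-30 at lipase genes, had 3561 and 3351 against 2370.3 and 3145, a log2 fold change of 0.34 that passed in limma (adjusted p = 0.0395) but not in DESeq2 (adjusted p = 0.305). The zinc finger gene *blmp-1* had 152 and 257 against 71.9 and 116, and *pqm-1* had 1227 and 1365 against 821 and 899. *ets-5* had 25.9 and 27.8 against 7.40 and 6.08, and so passed the filter only through the overexpression libraries. *sdc-2* and *sdc-3*, which start dosage compensation of the X chromosomes in hermaphrodites, had 450.1 and 629 against 267 and 237 and 685 and 756 against 454 and 445 (log2 fold changes 1.08 and 0.68, limma adjusted p = 0.000817 and 0.000936). Genes with an SNF2 domain, the motor of chromatin remodelers, gave 11 increases (37.9%) and 3 decreases (10.3%, against 8.06% of all genes) among 29. These genes include *xnp-1*, the counterpart of human ATRX, with 2242 and 2764 against 1582 and 1423.

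F-box A genes, adaptors that bring substrates to ubiquitin ligases, were not called more often than other genes, apart from the 2-fold class. Of 211 listed, 155 were tested, 8 rose (5.16%) and 4 fell, and 8 rose at least 2-fold (5.16%, against 1.72% of all genes). Of these, *fbxa-131*, *fbxa-15* and *fbxa-187* were under 10 normalized reads in both control libraries. They passed the filter only through the overexpression libraries. With at least 10 normalized reads in all 4 libraries, 5 of 142 rose at least 2-fold. *fbxa-136* had 69.1 and 120.0 normalized reads versus 24.3 and 26.4. *fbxa-192* fell from 488 and 442 to 172 and 181 (log2 fold change -1.39, limma adjusted p = 6.49e-05), and *fbxa-191*, a pseudogene 629 bp from it on chromosome V, fell from 132 and 117 to 54.7 and 58.5. Members of this family are similar in sequence, so their reads are uncertain. Among 136 F-box B and C genes, 2 rose and 0 fell.

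The 22 genes that fell at least 2-fold were mostly low in level. *mct-2*, of the monocarboxylate transporter class, fell from 289 and 359 to 85.4 and 79.6 normalized reads (log2 fold change -1.95, limma adjusted p = 4.89e-05). *hsp-12.6*, a small heat shock protein gene, fell from 100.5 and 141 to 68.1 and 48, and the insulin-like gene *ins-10* from 29.6 and 45.6 to 11.5 and 16.3, although *ins-10* overlaps *vps-39*. C50F7.5 fell from 1117 and 747 to 662 and 273 with a wide spread in both groups. The neighbouring *nspc-16*, *nspc-17* and *nspc-18* on the X chromosome all fell. *nspc-17* had 201 and 186 against 423 and 441 (log2 fold change -1.16, limma adjusted p = 0.000204). In the *nspc* class as a whole, 0 rose and 11 fell among 17 tested, with a median log2 fold change of -0.66, and these peptide genes are similar enough that reads could be shared.

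Sperm genes fell together by modest amounts. *fog-3*, which directs germ cells to become sperm rather than oocytes, fell from 147 and 107 to 44.1 and 64.3 normalized reads (log2 fold change -1.22, limma adjusted p = 0.00918). Of 30 major sperm protein genes (*msp*), which encode the motor protein of crawling sperm, 0 rose and 20 fell, and their median log2 fold change was -0.45. The summed *msp* level was 15304 and 16666 against 23735 and 20425. Among 59 other sperm genes, 0 rose and 11 fell. The *msp* genes are near-identical in sequence, so reads of single members are uncertain. Few of these lists' members lie in the highest decile by level (0 and 1), and with scaling to equal totals 14 and 10 still fell. The sperm markers summed to 4062 and 4076 against 6233 and 5093, lower with overexpression in every library, and the part of sperm number in these decreases was not tested. Oocyte and eggshell genes had smaller medians, of -0.07 and -0.13, against -0.28 for the other sperm genes. The shares that fell, 5 of 26 (19.2%) and 4 of 22 (18.2%), were close to the 18.6% of the other sperm genes. Of all genes, 8.06% fell. The highest decile by level holds 21 of the 26 oocyte and 12 of the 22 eggshell genes. The oocyte median was 0.01 with scaling to equal totals, where its sign is reversed.

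Energy metabolism was lower by small steps. *icl-1*, the enzyme of the glyoxylate cycle that lets worms turn fat into sugar, fell from 48197 and 47616 to 28589 and 20530.5 normalized reads (log2 fold change -0.98, standard error 0.10, limma adjusted p = 0.000151). *pck-1*, the first step of gluconeogenesis, fell from 4174 and 4294 to 3071 and 2689 (log2 fold change -0.56, limma adjusted p = 0.000361). Of 22 glycolysis and gluconeogenesis genes, 12 fell (54.5%, against 8.06% of all genes) and 0 rose. Of 23 genes of the tricarboxylic acid and glyoxylate cycles, 12 fell (52.2%) and 0 rose. The highest decile by level, where 34.9% of all genes fell, holds 14 and 15 genes of these lists. It also holds 8 and 9 of their decreases. Nuclear genes of the respiratory chain gave 26 decreases among 49, with a median log2 fold change of -0.21, while 2 of 13 mitochondrially encoded genes fell. Antioxidant genes gave 2 increases and 6 decreases among 25. *sod-3*, a mitochondrial superoxide dismutase, fell from 130.1 and 125 to 80.6 and 68.1 in limma but not in DESeq2 (adjusted p = 0.0724), whereas *trx-3*, an intestinal thioredoxin, rose from 11.6 and 10.1 to 33.6 and 28.8.

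Genes of protein synthesis and breakdown fell by small amounts, and those of protein folding by less. Of 83 cytosolic ribosomal protein genes, 57 fell and 0 rose, with a median log2 fold change of -0.20 and a range of -0.24 to -0.16 over the pairs of libraries. *rps-6*, for example, had 27714 and 26164 against 33182 and 32624 (log2 fold change -0.29, limma adjusted p = 0.00168). Translation factors gave 23 decreases among 39, aminoacyl-tRNA synthetases 17 among 34, and mitochondrial ribosomal proteins 19 among 71. The proteasome, which degrades ubiquitin-tagged proteins, gave the highest share of these lists, with 27 of 33 subunit genes lower (81.8%) and a median of -0.26. *pbs-2* had 2540.5 and 2335 against 3238 and 3209.8. Of 48 genes of the HSP70, HSP90, J-domain and chaperonin families, 15 fell and 3 rose, with a median of -0.11 that was -0.03 with scaling to equal totals. Within this list, the chaperonin subunits *cct-8* and *cct-3* fell from 5057 and 5073 to 3823 and 3464 and from 6356 and 6534 to 4961 and 4347.

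Several of these lists hold many abundant genes, in which small decreases were common. In the highest decile by level, 34.9% of all genes fell. That decile holds 78 of 83 cytosolic ribosomal, 26 of 33 proteasome, 23 of 39 translation factor and 24 of 49 respiratory chain genes, but only 1 of 71 mitochondrial ribosomal genes. With scaling to equal total reads, 530 of all 15918 genes fell. The number that fell was then 13 of 83 for cytosolic ribosomal proteins, 12 of 33 for the proteasome and 11 of 39 for translation factors. It was 10 of 49 for the respiratory chain, 7 of 22 for glycolysis and gluconeogenesis and 3 of 71 for mitochondrial ribosomal proteins. The share of mitochondrial ribosomal genes was thus close to that of all genes. The medians stayed below 0, at -0.11 for cytosolic ribosomal proteins and -0.17 for the proteasome.

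Muscle genes moved in both directions. *unc-15*, the paramyosin gene, fell from 34096 and 35807 to 26411 and 26136 normalized reads, and *myo-3*, a myosin heavy chain gene, from 8325 and 9471 to 7017 and 6669 (log2 fold changes -0.41 and -0.38, limma adjusted p = 0.000204 and 0.00201). *unc-54*, the major myosin gene, fell from 86068 and 82320.3 to 69795 and 69919, and some of its reads could come from the Aβ transgene, which carries the end of this gene. In the other direction, the giant sarcomere proteins rose, *ttn-1*, of the titin family, from 1679 and 1563 to 2069 and 2595 and *unc-22*, or twitchin, from 5818 and 5658 to 6581 and 7726. Of 52 sarcomere genes, 4 rose (7.69%, against 6.71% of all genes) and 13 fell (25%, against 8.06%). The highest decile by level holds 22 of the 52 and 11 of the 13 that fell. In that decile 34.9% of all genes fell. The 6 body wall muscle markers summed to 128764 and 128390.0 against 158276 and 156954, and their part in the decreases was not tested.

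Nervous system genes were close to the background or below it. None of 30 FMRFamide-like peptide genes passed the test, and among 64 other neuropeptide genes 1 rose and 1 fell. Of 113 synapse and channel genes, 2 rose and 1 fell. Of 1076 chemoreceptor genes listed, only 140 reached the level needed for testing, and 5 rose (3.57%, against 6.71% of all genes). The 3 that rose at least 2-fold were *sri-70*, *sri-8* and *srx-125*. All were under 10 normalized reads in both control libraries and passed the filter only through the overexpression libraries. Autophagy genes, the best-known targets of TFEB beside those of the lysosome, gave 1 increase (*atg-2*, log2 fold change 0.52) and 2 decreases (*atg-4.1* and *unc-51*) among 29 tested, at limma adjusted p = 0.000776, 0.0248 and 0.031, although *unc-51* had a DESeq2 adjusted p of 0.0699. The autophagy median was -0.02, and 0.07 with scaling to equal totals. Of 83 lysosomal hydrolase and proton pump genes, 21 rose (25.3%, against 6.71% of all genes) and 7 fell. The aspartyl proteases *asp-14* and *asp-16* and the scavenger receptor gene *scav-5* were among the larger increases. *scav-5* passed the filter only through the overexpression libraries. Of 20 proton pump genes (*vha*) tested, 1 rose and 0 fell, with a median log2 fold change of 0.04. Histone, replication and Argonaute genes gave 2, 4 and 3 increases and 1, 8 and 7 decreases among 38, 60 and 20 tested.

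The changes were spread unevenly over the genome. On the X chromosome, 192 of 2172 genes rose (8.84%) and 62 fell (2.85%), whereas on all other chromosomes 6.37% rose and 8.88% fell. The median log2 fold change of X-linked genes was 0.12, from 0.07 to 0.17 over the 4 pairs of libraries, against -0.02 elsewhere. X-linked genes are rarer among abundant genes, with 87 of the 1592 genes in the highest decile. The share that rose was higher for X-linked than for other genes in each of the upper 6 deciles by level, with the widest gap in the seventh (18.4% and 9.10%), but it was lower in the second (1.81% and 2.89%) and the fourth (4.86% and 5.58%). In the highest decile 23% and 35.6% fell. Chromosome V, where many chemoreceptor and F-box genes lie, had 78 of the 2-fold increases among 3178 genes, and chromosome I had 13 among 2595. These shares are descriptions, since neighbouring genes are not independent.

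**Figure D5:**
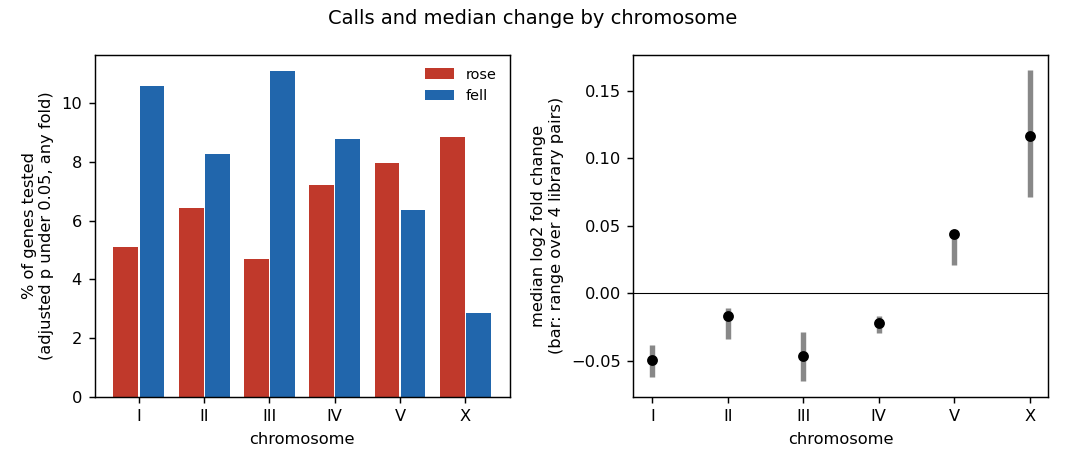
Left, share of genes tested on each chromosome that rose (red) or fell (blue) at an adjusted p under 0.05 at any fold. Right, median log2 fold change per chromosome (point) with its range over the 4 pairs of libraries (bar). The X chromosome has the lowest share of decreases (2.85%) and the highest median.

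Genes that rose were often neighbours. Of the 274 genes that rose at least 2-fold, 68 (24.8%) had another such gene within 10 kb, against 5.98% of all other genes tested. There were 10 runs of at least 3 genes that rose in this way, several of them within a gene family. On chromosome II, from 10468351 to 10490514, *clec-143*, *sri-8*, *clec-58*, *clec-60* and *clec-61* rose out of 7 genes tested in the span. On chromosome IV, *clec-67*, *clec-69*, *clec-70* and *clec-71* rose between 3922165 and 3939924, and *dod-22*, F55G11.2, *mbug-1*, *dod-17*, K10D11.2 and K10D11.5 between 12965387 and 12991804. F55G11.2 had 76.8 and 94 normalized reads versus 14.8 and 10.1. Reads shared between similar neighbours could add to such runs, and this was not tested.

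Of the 274 genes that rose at least 2-fold, 124 are known here only by a sequence name or number. So are 9 of the 22 that fell and 6862 of all 15918 genes tested. Unnamed genes were thus called about as often as others. Some of those that rose were well expressed. Y39B6A.1 had 2642 and 4818 normalized reads versus 662 and 749 (log2 fold change 2.34, limma adjusted p = 1.74e-05), and Y51F10.7 had 358 and 422 against 28.6 and 48.6. C17F4.7 had 862 and 534 against 92 and 123, and F22F7.7, annotated with a ChaC domain of glutathione-cleaving enzymes, had 3052 and 3110.2 against 1493 and 1476 (log2 fold change 1.05, limma adjusted p = 1.74e-06). In each of these genes both overexpression libraries were well above both controls.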

How the data were processed

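Total RNA of whole worms was sequenced, and the table of the overexpression comparison was used with 4 libraries, 2 per group, assigned to groups from the labels. The deposited values are a signal, namely reads per gene divided by one size factor per library by the authors, whose processing notes name HISAT2, featureCounts and DESeq2 without roles or versions. The genome build and the use of strand in counting are not given in the sources used here. Multiplying by the size factor gave whole reads for 100% of values at a tolerance of 0.001. The columns with the authors' own fold changes and p-values were not used, nor was the table of the knockout comparison.

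Genes that reached 10 normalized reads in 2 or more libraries were fitted on log2(value + 1) with limma 3.58.1 (trended empirical Bayes, R 4.3.3) and Benjamini-Hochberg adjustment over all 15918 genes. As alternatives, the recovered reads were fitted with edgeR 4.0.16 and with DESeq2 1.42.0. The scripts were tested on simulated data. Gene names were matched to RefSeq and positions are those of the deposited table, and 20631 of the 20667 genes found by name in WBcel235 overlapped its annotated position. Of the 196 genes named by rule, 56 overlap another annotated gene, so their reads are uncertain where strand was not used.

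Named genes were *hlh-30*, the 15 rising and 15 falling 2-fold genes with the smallest adjusted p, the 10 largest increases with a mean of at least 50 normalized reads with overexpression, all *vit* genes, up to 6 called members of each of 68 gene lists (up to 3 at any fold where none was called), and tissue markers. Genes named for a class, a domain, a position or as examples beyond this rule were chosen after their values were seen. The members and lists were chosen with earlier results of these data known. Counting intervals are exact 95% Clopper-Pearson intervals of the summed reads. Alternatives changed the scaling, the filter, the pseudocount (0.1), the trend, the test, the threshold and the replicate block, and left out each library, and scaling to total reads was added after the data were seen.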

Additional observations from a re-analysis of the deposited data

How the results depend on the processing

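Under edgeR, TMM scaling, a pseudocount of 0.1, a minimum of 10 normalized reads in all 4 libraries and the replicate block, each count of rising and falling genes was within 1.5 times its main value and *hlh-30* stayed past the threshold. DESeq2 gave 167 increases and 13 decreases of at least 2-fold, with no adjusted p for 105 main increases. Scaling to total reads, chosen after seeing the data, gave 12 decreases of at least 2-fold and 530 at any fold. With no filter on low values, limma called 0 increases and 0 decreases at either threshold, with 4515 genes at an unadjusted p under 0.05, and *hlh-30* kept its log2 fold change of 0.87 without passing. With no trend in limma there were 3 increases at either threshold and 0 decreases, with 3199 genes at an unadjusted p under 0.05, and *hlh-30* had the same 0.87 without passing. The cause of these losses was not tested. With no minimum fold the counts were 1068 and 1283, and at an unadjusted p under 0.05 with at least 2-fold they were 478 and 55. Leaving out each library in turn gave 0 to 380 increases and 0 to 49 decreases of at least 2-fold, 0 to 1271 increases and 0 to 1658 decreases at any fold, and a log2 fold change of *hlh-30* from 0.82 to 0.92. The 0 counts came from leaving out either control library, where limma adjusted p-values rested on the overexpression pair alone.

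The labels do not say whether the replicate numbers pair the libraries. The deviations of same-numbered libraries from their group means correlated at 0.027 over 15918 genes. This single value cannot show whether some genes are paired. With the replicate block, 342 genes rose and 23 fell at least 2-fold, and 1345 and 1575 at any fold. No called named gene changed direction under an alternative that was run. Named genes that lost their call numbered 193 with no filter, 191 with no trend, 193 without either control library, 18 and 34 without overexpression replicates 1 and 2, 15 with total-read scaling, 11 under DESeq2, which gave a further 37 no adjusted p, and 2 with a pseudocount of 0.1. The motif search planned for promoters of rising genes was not run. With 2 libraries per group, precision is limited by 2 residual degrees of freedom, and below a mean of 20 normalized reads only changes of more than 2-fold were called.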

Other observations

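Nuclear pore genes were among the classes with mostly small decreases. Of 26 *npp* genes tested, which build the channels between nucleus and cytoplasm, 1 rose and 13 fell, with a median log2 fold change of -0.21. Genes with a motile sperm domain gave 0 increases and 27 decreases among 96. On the rising side, genes with a laminin G domain, found in cell surface and matrix proteins, gave 5 increases and 0 decreases among 12, and those with the uncharacterized domain DUF1679 gave 6 and 0 among 20. The glutamine- and asparagine-rich *abu* and *pqn* genes gave 7 increases (11.7%) and 4 decreases among 60. The MATH and BTB genes were near the 6.71% of all genes that rose, with 7 increases (7.87%) and 3 decreases among 89.

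At any fold, pseudogenes, noncoding RNA genes and loci without an annotation were called no more often than the 6.71% and 8.06% of all genes that rose and fell. By at least 2-fold, 10 (2.79%), 3 (1.95%) and 4 (4.44%) of them rose, against 1.72% of all genes. Decreases of that size numbered 1 (0.279%), 2 (1.3%) and 1 (1.11%), against 0.138%, so these shares rest on few genes. Of 359 pseudogenes tested, 21 rose and 1 fell, with a median log2 fold change of 0.16. Of 90 loci that the table lists without an annotation, 6 rose and 1 fell. Among 154 noncoding RNA genes, 6 rose and 6 fell, and F09E10.10 on the X chromosome, with 4.80 and 0 normalized reads against 21.2 and 11.1, had the lowest log2 fold change of all genes tested (-2.77, limma adjusted p = 0.0445).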
